A study of Mus musculus with 8 samples.

Results

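The 10 genes described here mark white blood cells and antigen presentation, and were measured across the 8 libraries of the series: Ptprc, Cd74, Cd79a, Cd79b, H2-Aa, H2-Ab1, H2-Eb1, C1qa, C1qb and Lyz2. They were chosen by gene name from the 55157 genes of the deposited table, and all 10 were found once. The libraries hold RNA from type 7 to 8 follicles isolated from ovaries of Kunming mice, an outbred stock, at postnatal day 21. All 8 came from animals given PMSG, a gonadotropin from pregnant mares that makes follicles grow, and sampled 24 hours later. Control samples (4 libraries) had normal saline with PMSG, and melatonin samples (4 libraries) had melatonin with PMSG. The labels number the replicates but do not say whether each came from 1 animal or from pooled animals, so each p-value rests on a spread between libraries that could partly be technical.

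As background, leukocytes enter the ovary from the blood and lie mainly in the stroma and the theca, outside the basement membrane that encloses granulosa cells and oocyte. Ovarian macrophages clear dying cells and debris, and they present antigen. MHC class II molecules, pairs of an alpha and a beta chain on macrophages, dendritic cells and B cells, show peptides to helper T cells. The invariant chain encoded by Cd74 fills their groove until they reach the endosome. In RNA from whole follicles, fewer cells of a type and less RNA per cell cannot be told apart.

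Promoter sequences of the members are shown because genes of the same role can hold the same short motifs there. RefSeq promoters (GRCm38.p6) were found for 6 of the 10 members, and the 150 bases before the RefSeq start are shown for each, 5′ to 3′ on the gene's strand. Capitals mark matches on either strand to 3 motifs picked after the sequences were seen: the Y box CTGATTGG, bound by NF-Y; the X box core GCAACT, where the RFX complex binds; and the ETS motif AGGAAGT, of the kind bound by PU.1, the leukocyte factor encoded by Spi1. The first pair are MHC class II genes and the other four are pan-leukocyte, B cell and macrophage genes.
H2-Aa (chr17:34287824-34287973, minus strand): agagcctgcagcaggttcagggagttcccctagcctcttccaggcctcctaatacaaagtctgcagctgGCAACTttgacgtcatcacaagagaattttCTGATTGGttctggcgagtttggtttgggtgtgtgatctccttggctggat
H2-Eb1 (chr17:34305717-34305866, plus strand): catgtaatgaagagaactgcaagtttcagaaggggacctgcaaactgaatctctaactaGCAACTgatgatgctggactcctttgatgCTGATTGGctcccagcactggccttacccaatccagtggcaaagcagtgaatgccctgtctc
Ptprc (chr1:138175306-138175455, minus strand): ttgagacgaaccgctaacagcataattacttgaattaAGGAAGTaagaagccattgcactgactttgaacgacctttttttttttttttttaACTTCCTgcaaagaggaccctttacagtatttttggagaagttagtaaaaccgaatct
Cd79a (chr7:24897347-24897496, plus strand): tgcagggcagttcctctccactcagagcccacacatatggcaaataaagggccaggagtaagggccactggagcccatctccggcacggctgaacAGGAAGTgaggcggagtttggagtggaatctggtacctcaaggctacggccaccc
C1qb (chr4:136886201-136886350, minus strand): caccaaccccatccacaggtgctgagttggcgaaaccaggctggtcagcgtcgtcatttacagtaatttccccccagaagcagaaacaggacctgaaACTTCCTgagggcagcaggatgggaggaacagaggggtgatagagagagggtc
Lyz2 (chr10:117282273-117282422, minus strand): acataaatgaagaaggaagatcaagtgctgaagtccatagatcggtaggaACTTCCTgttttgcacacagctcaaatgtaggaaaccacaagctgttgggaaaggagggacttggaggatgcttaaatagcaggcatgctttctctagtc
Both class II windows hold the X box core and the Y box in the same order, with 24 bases between them in H2-Aa and 23 in H2-Eb1. The Y box letters occur in 3.13% of all 32475 promoter windows of this length, the X box core in 5.41% and both in 0.169%. The ETS letters occur in the other 4 windows shown, against 5.07% of all windows. These shares carry no test, since the motifs were picked after the windows were seen. RefSeq lists another start for Ptprc, whose window holds none of the 3 motifs. By the GENCODE M21 coordinates the whole Ptprc window shown, most of the Cd79a window and part of the Lyz2 window lie inside the gene. A match describes letters and is not evidence of binding.

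The whole series had an implied depth of 17451111 to 23649205 fragments per library, and 14504 to 14833 genes reached 1 FPKM in a library. FPKM, a fragment count corrected for exon length and for library size, takes gene length into account, so levels of different genes can be compared. Follicle markers were abundant in all 8 libraries, with the granulosa list summing to 5739 to 8547 FPKM and the oocyte list to 275 to 458 FPKM. On the first principal component of all tested genes (26.5% of the variance) control replicate 3 stood apart at -29.9, with the other control libraries between -11.4 and -0.49 and the melatonin libraries between 5.81 and 17.4, so the groups did not overlap on it. Fold changes of the members are given with and without control replicate 3.

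Leukocyte transcripts were scarce and uneven. Control replicate 3 was the highest library for every member, and control replicate 2 was second for 9 of 10. Over all genes above 0 FPKM in any library, control replicate 3 was highest in 16.1%, and it was highest with control replicate 2 second in 3.44%. Among the 14738 genes averaging 1 FPKM or more these shares were 18.8% and 4.10%. Without control replicate 3, control replicate 2 was the highest of the remaining 7 libraries in the same 9 members, where 17.5% of all genes above 0 FPKM did so, and 14.7% of those averaging 1 FPKM or more. These counts describe the libraries and carry no test, since the pattern was seen before it was counted.

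**Figure D1:**
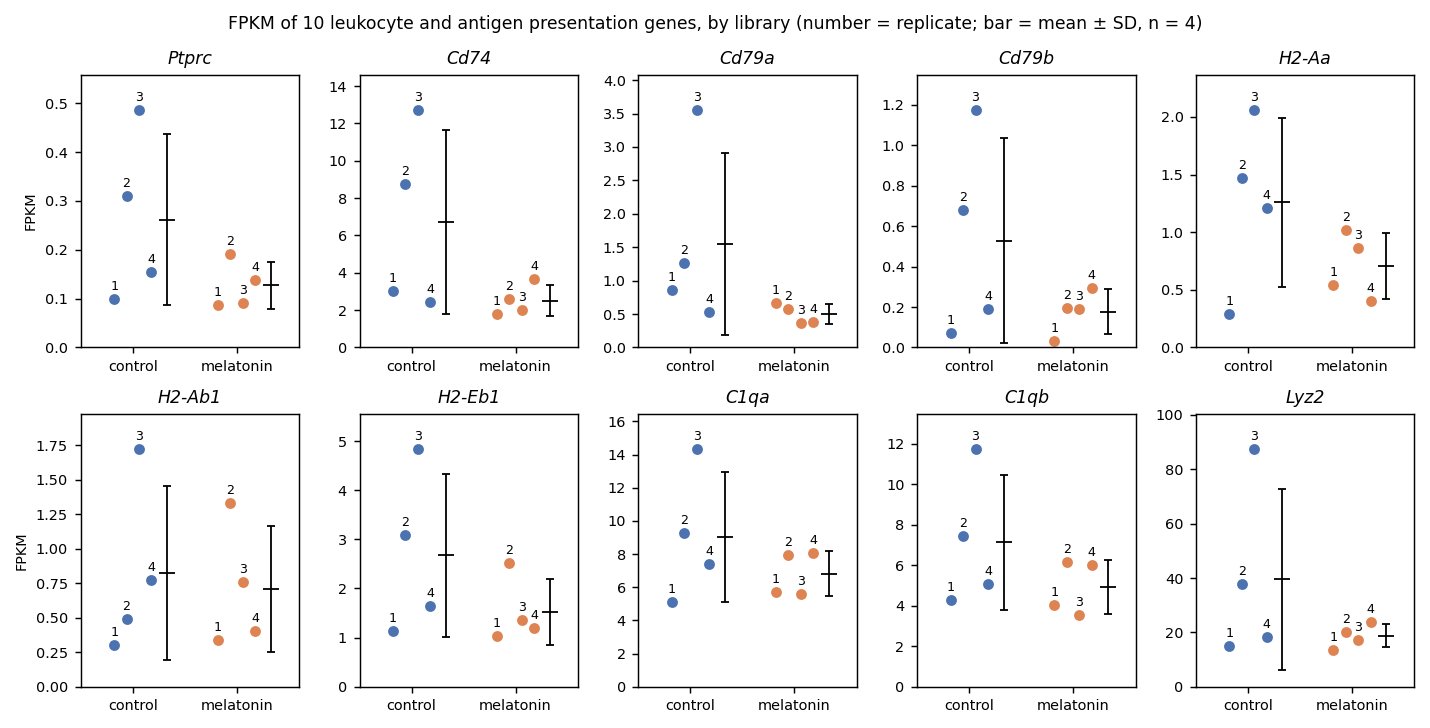
FPKM of each of the 10 genes (vertical axis, 1 panel per gene, from 0) in the 4 control and 4 melatonin libraries; numbers give the replicate, and bars the mean ± SD (n = 4). Control replicate 3 is the top point in every panel, and the groups overlap in every panel.

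Ptprc encodes CD45, the phosphatase on nearly all white blood cells. It lies on chromosome 1 (138062861 to 138175708, mm10, GENCODE M21) and was at 0.0982, 0.310, 0.486 and 0.154 FPKM in control replicates 1 to 4. In melatonin replicates 1 to 4 it was at 0.0877, 0.190, 0.0912 and 0.138 FPKM. Control replicates 2 and 3 lay above all melatonin values, and control replicates 1 and 4 lay among them. These values rest on 36, 99, 196 and 62 fragments in control and 38, 75, 31 and 54 in melatonin libraries, spread over an exon length of 18313 bases. Exact Poisson 95% intervals, which cover counting error only, ran from 170 to 225 fragments in control replicate 3 and from 25.2 to 49.8 in control replicate 1.

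Other pan-leukocyte genes were high in the same libraries. All 18 genes of that list, which includes Ptprc, were highest in control replicate 3, and in 17 of them control replicate 2 came second. Tyrobp, a signalling adaptor of myeloid cells, was at 3.15, 6.44, 12.2 and 3.74 FPKM in control and 2.92, 4.11, 2.59 and 5.91 in melatonin replicates 1 to 4. Itgb2, the beta chain of leukocyte integrins, reached 7.67 FPKM in control replicate 3 and 2.85 in control replicate 2, against 0.565 to 1.23 in the other 6 libraries. Fcer1g, an Fc receptor chain, was at 6.39 FPKM in control replicate 3 and 1.89 to 2.95 in the others. Spi1 was at 1.26 and 0.872 FPKM in control replicates 3 and 2, and between 0.251 and 0.401 in the rest. Summed over the list, levels were 12.4 to 50.3 FPKM in control and 11.3 to 18.8 FPKM in melatonin libraries.

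Cd79a and Cd79b encode the pair of signalling chains of the B cell receptor. Cd79a (chromosome 7, 24897381 to 24902197) was at 0.857, 1.26, 3.55 and 0.530 FPKM in control and 0.668, 0.574, 0.370 and 0.387 in melatonin replicates 1 to 4. Cd79b (chromosome 11, 106311341 to 106314762) was at 0.0698, 0.681, 1.17 and 0.190 FPKM in control and 0.0295, 0.195, 0.188 and 0.295 in melatonin. The lowest Cd79b values rest on 2 fragments in control replicate 1 and 1 fragment in melatonin replicate 1, against 37 in control replicate 3 (exact Poisson 95% interval 26.1 to 51.0). Outside control replicate 3 the members of the pair did not follow one order: control replicate 1 had the third highest Cd79a and the second lowest Cd79b.

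Immunoglobulin genes separated control replicates 2 and 3 further from the rest than Cd79a did. Igkc, the kappa light chain constant region, was at 4.95 and 6.14 FPKM there and at 0.175 to 0.883 FPKM in the other 6 libraries. Ighm, the constant region of IgM, was at 3.98 and 5.87 FPKM against 0.800 to 1.30. The 15 listed B cell genes summed to 14.7 and 22.1 FPKM in control replicates 2 and 3, and to 2.68 to 3.77 FPKM in the other 6. Of these genes 12, including Cd79a and Cd79b, were highest in control replicate 3. The plasma cell gene Jchain was not among them.

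T and NK cell genes were near the limit of detection. The defining T cell genes Cd3e and Cd3d were at 0 in 4 and 5 of the 8 libraries and reached 0.0367 and 0.150 FPKM at most. One gene of the list of 17 passed 1 FPKM on average, Lck, a T cell kinase, at 0.665 to 1.55 FPKM. Its lowest value was in control replicate 2, the library second for most leukocyte genes. The summed list was at 2.08 to 3.99 FPKM in control and 1.79 to 2.74 FPKM in melatonin libraries, with 8 of 17 genes highest in control replicate 3.

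Cd74 had the highest level of the 4 class II members. It lies on chromosome 18 (60803848 to 60812652) and was at 3.01, 8.74, 12.7 and 2.41 FPKM in control replicates 1 to 4. In melatonin replicates 1 to 4 it was at 1.80, 2.57, 1.99 and 3.66 FPKM. Control replicates 2 and 3 stood above the other 6 libraries, while control replicate 4 lay below melatonin replicates 2 and 4.

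The class II chain genes lie close together on chromosome 17. H2-Eb1, a beta chain (34305867 to 34316674), was at 1.14, 3.10, 4.83 and 1.65 FPKM in control and 1.04, 2.51, 1.37 and 1.19 in melatonin replicates 1 to 4. H2-Aa, the alpha chain of the other class II molecule (34282744 to 34287823), was at 0.293, 1.47, 2.06 and 1.21 FPKM in control and 0.542, 1.02, 0.863 and 0.401 in melatonin. Its partner beta chain H2-Ab1 (34257689 to 34269419) was at 0.305, 0.490, 1.72 and 0.777 FPKM in control and 0.336, 1.33, 0.757 and 0.402 in melatonin. H2-Ab1 was the exception to the order of libraries: control replicate 2, second for the other 9 members, was the fifth highest here, and melatonin replicate 2 was second. In fragments, which for H2-Ab1 rest on an exon length implied by the values, it had 14 in control replicate 2 (exact Poisson 95% interval 7.65 to 23.5) and 47 in melatonin replicate 2 (34.5 to 62.5).

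Genes that regulate class II did not share this pattern. Ciita, the coactivator that switches class II genes on, was at 0.0762 to 0.138 FPKM in control and 0.124 to 0.151 FPKM in melatonin libraries. Rfx5, a subunit of the RFX complex that binds the X box, was at 7.40 to 7.94 FPKM in control and 6.97 to 8.15 FPKM in melatonin libraries. The endosomal genes Ifi30, a thiol reductase, and Lgmn, a protease, were at 26.8 to 35.9 and 47.7 to 60.8 FPKM over the 8 libraries, with control replicate 3 highest for Ifi30 and lowest for Lgmn. Ctss, the protease that trims the invariant chain, was at 11.7 FPKM in control replicate 3 and 2.46 to 4.68 FPKM in the others. Of the 18 listed class II genes, 11 were highest in control replicate 3, including Cd74, H2-Aa, H2-Ab1 and H2-Eb1.

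Lyz2, which encodes the lysozyme of macrophages and granulocytes, had the highest level of the 10 members. It lies on chromosome 10 (117277331 to 117282321) and was at 15.1, 37.7, 87.3 and 18.1 FPKM in control replicates 1 to 4. In melatonin replicates 1 to 4 it was at 13.7, 20.2, 17.3 and 23.8 FPKM. Control replicate 3 rested on 2531 fragments and control replicate 1 on 399, so counting error was small beside the distance between these libraries.

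C1qa and C1qb encode chains of C1q, the recognition molecule of the classical complement pathway, made largely by macrophages. Both lie on chromosome 4 (136895917 to 136898803 and 136880129 to 136886187). C1qa was at 5.14, 9.26, 14.3 and 7.42 FPKM in control and 5.73, 7.95, 5.597 and 8.04 in melatonin replicates 1 to 4. C1qb was at 4.27, 7.43, 11.7 and 5.09 FPKM in control and 4.04, 6.15, 3.57 and 6.0003 in melatonin. The pair kept nearly one order, with control replicates 3 and 2 on top and melatonin replicates 1 and 3 and control replicate 1 as the lowest 3. The third chain gene C1qc ranged from 2.48 to 6.75 FPKM in control and from 2.54 to 5.11 FPKM in melatonin libraries.

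Macrophage genes were not uniformly higher in control replicate 3. Of 24 listed genes 17 were highest there, including Lyz2, C1qa and C1qb. The summed list was at 45.3 to 171 FPKM in control and 42.6 to 68.0 FPKM in melatonin libraries. Itgam, an integrin chain of myeloid cells, and Ccr2, a chemokine receptor of monocytes, were at 1.21 and 0.524 FPKM in control replicate 3, against 0.0740 to 0.536 and 0.0375 to 0.136 in the others. Adgre1, which encodes F4/80, was at 4.26 FPKM there against 0.602 to 1.81. The Fc receptor gene Fcgr3 was at 3.24 FPKM there against 0.559 to 1.55. Cd68, a lysosomal glycoprotein gene, was at 6.35 FPKM there against 2.83 to 6.13. Folr2, a folate receptor of tissue macrophages, was at 1.29 FPKM there against 0.482 to 0.932. By contrast Mrc1, the mannose receptor gene, and Lyve1, a hyaluronan receptor gene, were at 0.805 and 0.731 FPKM in control replicate 3, inside the ranges of the other 7 libraries (0.685 to 1.28 and 0.513 to 1.33).

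The members differed in how far control replicate 3 stood above the others. Its level over the median of the other 7 libraries was 1.93-fold for C1qa, 2.30-fold for C1qb, 2.39-fold for H2-Aa, and 3.51-fold, 3.51-fold and 3.54-fold for Ptprc, H2-Ab1 and H2-Eb1. It was 4.81-fold for Lyz2, 4.95-fold for Cd74, 6.16-fold for Cd79b and 6.19-fold for Cd79a. Among tested genes as a whole, 4.93% were at least 1.5 times that median in control replicate 3. Listed genes outside the members reached 9.51-fold for Itgb2 and 12.9-fold for Igkc.

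**Figure D2:**
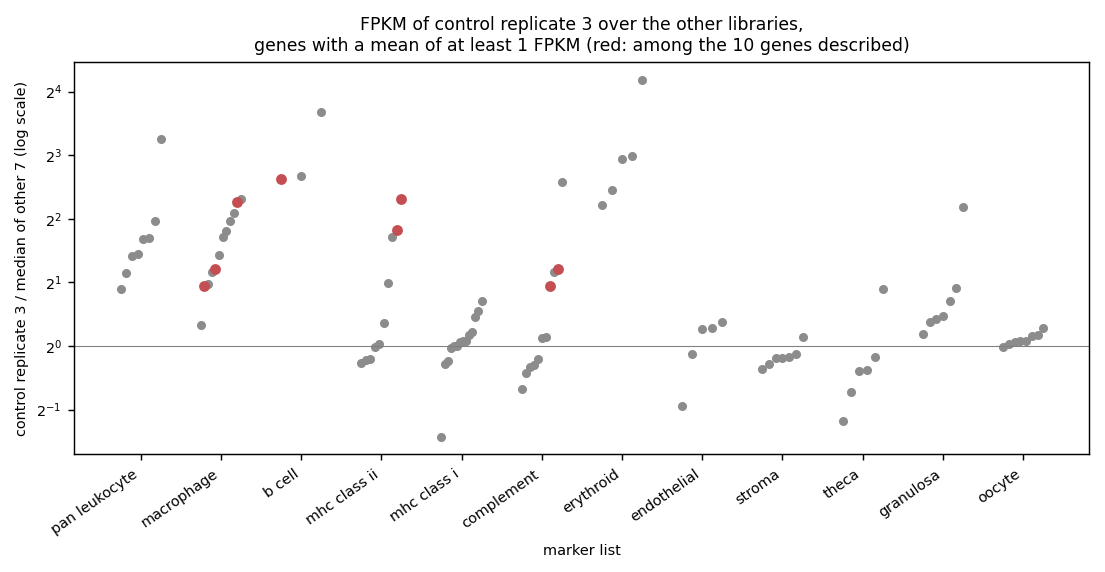
FPKM in control replicate 3 divided by the median of the other 7 libraries (vertical axis, log scale) for each listed gene averaging 1 FPKM or more, by marker list; red points are the 6 of the 10 members that pass that filter, drawn once in each list that holds them. Leukocyte, B cell and erythroid genes lie above the line at 1, with Cd79a at 6.19 and C1qa at 1.93, and oocyte genes lie between 0.987 and 1.21.

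Red blood cell genes were high in the same libraries as the leukocyte genes. Hba-a1, a hemoglobin alpha chain, was at 44.1, 605, 1075 and 115 FPKM in control and 76.9, 353, 242 and 232 in melatonin replicates 1 to 4. The 5 erythroid genes summed to 66.5 to 1545 FPKM in control and 125 to 479 FPKM in melatonin libraries, and 4 of 5 were highest in control replicate 3 with control replicate 2 second. In melatonin replicate 2 the erythroid sum was 479 FPKM, the highest of that group, and Ptprc, H2-Aa, H2-Ab1, H2-Eb1 and C1qb were highest of their group in the same library. Cd74, Cd79b, C1qa and Lyz2, and the pan-leukocyte and macrophage sums, were highest of that group in melatonin replicate 4, and Cd79a in melatonin replicate 1. Neutrophil genes summed to 0.888 to 8.69 FPKM in control and 0.969 to 2.46 FPKM in melatonin libraries, with control replicate 3 on top. S100a9, a calcium-binding protein of neutrophils, was at 3.65 FPKM in that library and 0.0810 to 1.32 FPKM in the others, and the defining gene Ly6g was at 0 in 7 libraries. Mast cell genes summed to 1.24 to 2.12 FPKM and 0.753 to 1.06 FPKM, with the defining gene Fcer1a at 0 in all 8. The part of red blood cells, neutrophils and mast cells in the members' levels was not tested.

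Vessel, stroma and theca lists had other orders of libraries. The endothelial sum was 10.3 to 16.4 FPKM in control and 8.45 to 12.4 FPKM in melatonin libraries, and the stroma sum 29.5 to 62.7 and 19.3 to 38.8 FPKM. Both sums were highest in control replicate 2, and none of their 9 and 7 genes was highest in control replicate 3. The theca sum was 77.9 FPKM in control replicate 3, the lowest of its group. The granulosa sum, by contrast, was highest in control replicate 3 (8547 FPKM). In that list 6 of 7 genes were highest there, by 1.38-fold in the median gene over the median of the other libraries.

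**Figure D3:**
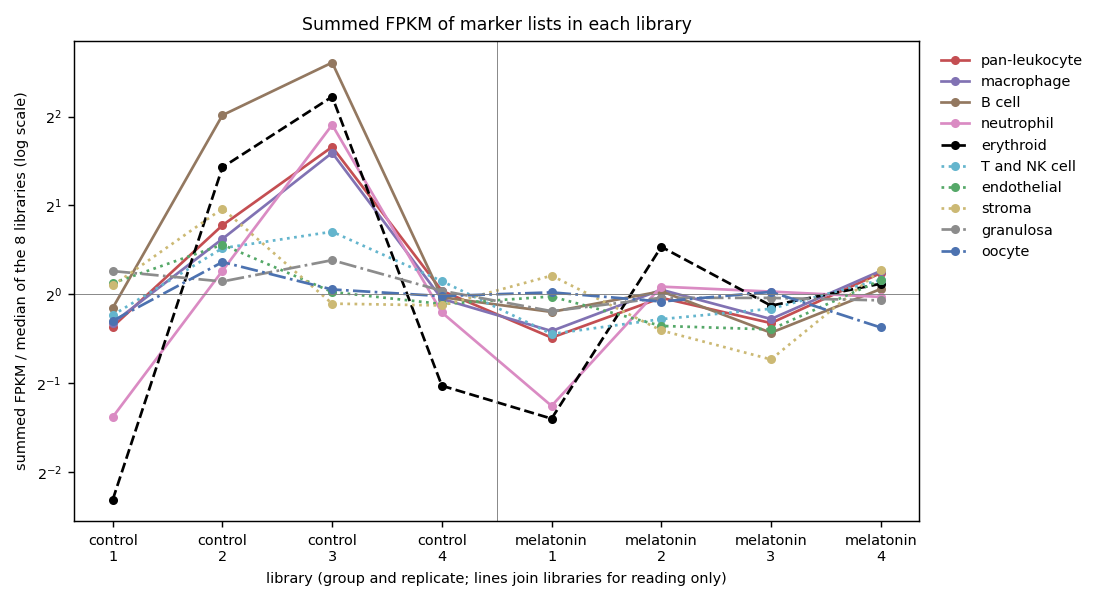
Summed FPKM of 10 marker lists in each library, divided by the median over the 8 libraries (vertical axis, log scale; horizontal axis, library by group and replicate; the lines only join points of a list). Pan-leukocyte, macrophage, B cell, neutrophil and erythroid lists peak in control replicate 3, where the B cell sum is 22.1 FPKM. The granulosa and the T and NK cell lists are highest there too, at 1.30 and 1.63 times the median. Endothelial, stroma and oocyte lists are highest in control replicate 2.

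Across the 8 libraries the members varied together. All 45 pairs of members had a positive Pearson r of log2(FPKM + 1), with a median of 0.88 and a range from 0.42 to 0.99. By an exact permutation test over all pairings, adjusted over the 45 pairs, 36 pairs passed 0.05 by Pearson's r and 21 by Spearman's rho (median rho 0.76). All pairs share the libraries and their depth, and the same counts were not made for pairs of other genes. Whether the members varied together more than other genes do was therefore not tested. With each group's mean removed, all 45 pairs were still positive (median r 0.86, from 0.45 to 0.99), and 13 passed by an exact permutation within groups, where the 576 arrangements allow an unadjusted p of 0.00174 at the smallest.

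Much of this rested on control replicates 2 and 3. Without control replicate 3, 10 of 45 pairs passed and 43 were positive, and without control replicate 2, 23 passed. When the 2 libraries farthest from the median of the first gene of a pair were left out (control replicates 2 and 3 where that gene was Ptprc, Cd74, Cd79a, Cd79b or H2-Eb1, and other libraries beside control replicate 3 for H2-Aa, H2-Ab1, C1qa and C1qb), 33 of 45 pairs stayed positive, the median r was 0.44, and 3 pairs passed adjusted over the 45. These were C1qa with C1qb, C1qb with Lyz2, and Cd79b with Lyz2. The macrophage pair C1qa and C1qb kept an r of 0.99 without control replicates 1 and 3 (0.98 over all 8 libraries; rho 0.90; exact permutation p = 0.000422 for r and 0.00456 for rho, adjusted p = 0.00379 and 0.0187). C1qb and Lyz2 kept 0.95 without control replicate 3 and melatonin replicate 3 (0.95 over all; rho 0.90; exact permutation p = 0.000645 for r and 0.00456 for rho, adjusted p = 0.00415 and 0.0187). Cd79b and Lyz2 kept 0.96 without control replicates 2 and 3 (0.99 over all, exact permutation p = 2.48e-05, the smallest that 8 libraries allow, adjusted p = 0.00112, and for rho adjusted p = 0.00223). This pair rests on 1 to 37 fragments of Cd79b over all 8 libraries, and on only 1 to 9 without control replicates 2 and 3.

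Other partners in a complex were less close than C1qa and C1qb in these values, a difference that was not tested. The B cell receptor chains Cd79a and Cd79b had r = 0.85 (rho 0.36; exact permutation p = 0.0204 for r and 0.389 for rho, adjusted p = 0.0297 and 0.407) and -0.80 without control replicates 2 and 3, so the relation rests on those. The class II partners H2-Aa and H2-Ab1 had r = 0.77 (rho 0.81; exact permutation p = 0.0275 for r and 0.0218 for rho, adjusted p = 0.0364 and 0.0467) and 0.44 without control replicates 1 and 3. H2-Ab1 had 2 of its 9 pairs passing and r from 0.42 with Cd74 to 0.78 with H2-Eb1.

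**Figure D4:**
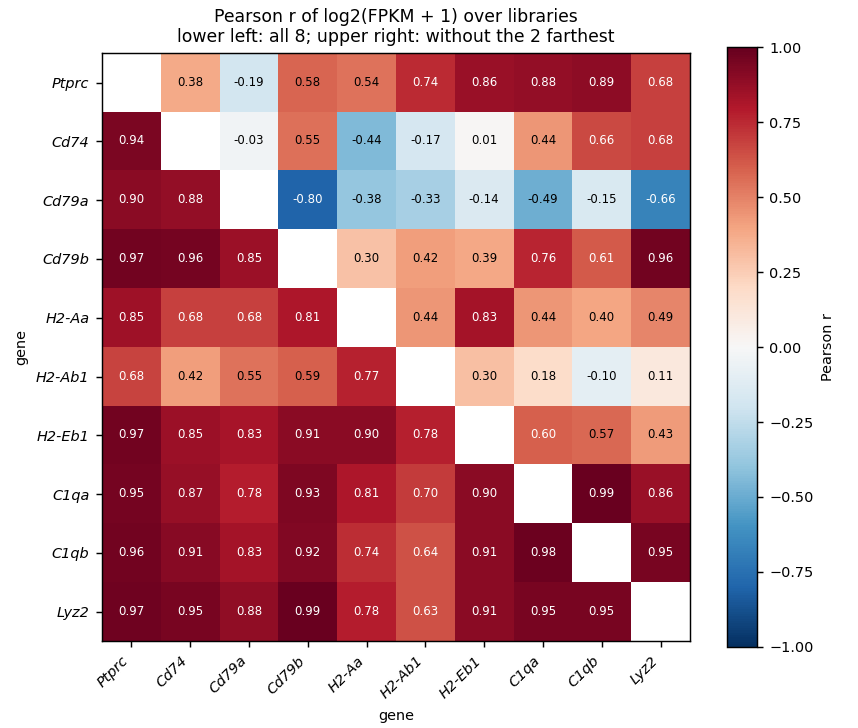
Pearson r of log2(FPKM + 1) over libraries for each pair of the 10 members (colour and printed value); the lower left uses all 8 libraries and the upper right leaves out the 2 farthest from the median of the gene of that row. All values at lower left are positive, while at upper right 12 of 45 are negative, among them all 9 pairs of Cd79a.

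Melatonin and control follicles were then compared. No member passed the threshold: with limma on log2(FPKM + 1), 0 of the 6 members tested had an adjusted p under 0.05, and 0 of all 14738 tested genes did (0%). At an unadjusted p under 0.05 there were 0 of the 6 members and 19.1% of all tested genes. The filter kept genes averaging 1 FPKM or more, with Cd79a just inside it (1.02 FPKM) and H2-Aa just outside (0.982 FPKM). Cd79a passed it through its control values, which favours a negative sign. Ptprc, Cd79b, H2-Aa and H2-Ab1 fell below it and were fitted without a filter, where 11.1% of 34898 genes and 0 of the 10 members had an unadjusted p under 0.05. In none of the 10 did the groups separate, against 5.94% of tested genes with all melatonin values below all control values and 5.79% with all above. The limma-voom fits on recovered fragments called 0 genes too, with 2740 at an unadjusted p under 0.05, or 3126 over genes averaging at least 10 fragments.

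Mean levels were lower with melatonin for all 10 members, where 50.5% of all genes above 0 FPKM had a negative log2 fold change, but the control libraries spread widely. Over the tested genes 52.5% had a negative one, and the median was -0.01, while the median of the 6 tested members was -0.55. Cd74 was at 6.72 ± 4.91 FPKM in control and 2.51 ± 0.839 with melatonin (SD, n = 4 each), a log2 fold change of -0.93 ± 0.43 SE with an adjusted p of 0.287. Without control replicate 3 it was -0.57, and without control replicate 4 it was -1.24. On recovered fragments the log2 fold change of Cd74 was -1.13 ± 0.56 SE (limma-voom adjusted p = 0.324). Lyz2 had means of 39.6 ± 33.3 and 18.7 ± 4.28 FPKM. Its log2 fold change was -0.73 ± 0.49 SE with limma (adjusted p = 0.445), or -0.24 without control replicate 3. Cd79a was at 1.55 ± 1.37 against 0.4996 ± 0.145 FPKM (log2 fold change -0.64, adjusted p = 0.298; -0.31 without control replicate 3). The log2(FPKM + 1) scale understates changes of low genes, and on recovered fragments the log2 fold change of Cd79a was -1.26 ± 0.61 SE (limma-voom adjusted p = 0.283).

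The complement genes and H2-Eb1 had smaller differences on the log2(FPKM + 1) scale. C1qa had 9.03 ± 3.90 against 6.83 ± 1.35 FPKM (SD, n = 4 each; log2 fold change -0.29, adjusted p = 0.555) and a fold change of -0.06 without control replicate 3, with a 95% interval from -0.52 to 0.39. C1qb had 7.13 ± 3.34 against 4.94 ± 1.33 FPKM, with log2 fold changes of -0.39 and, without that library, -0.15. H2-Eb1 had 2.68 ± 1.66 against 1.53 ± 0.671 FPKM, with -0.47 and -0.21. On recovered fragments (limma-voom, at least 10 fragments) H2-Eb1 had -0.68 ± 0.46 SE, close to the -0.76 ± 0.51 SE of Lyz2.

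The 4 genes below the filter had small differences on the log2(FPKM + 1) scale. Ptprc had 0.262 ± 0.174 against 0.127 ± 0.0482 FPKM (log2 fold change -0.15, limma adjusted p = 0.591, or -0.07 without control replicate 3), and -0.85 ± 0.50 SE on the log2 scale of recovered fragments (adjusted p = 0.398). Cd79b had 0.529 ± 0.505 against 0.177 ± 0.110 FPKM (-0.32, or -0.14 without that library, and -1.19 ± 0.91 SE on recovered fragments). H2-Aa had 1.26 ± 0.734 against 0.705 ± 0.284 FPKM (-0.35, or -0.18 without that library, and -0.64 ± 0.57 SE on recovered fragments). H2-Ab1 had 0.823 ± 0.628 against 0.707 ± 0.457 FPKM (-0.07, and -0.20 ± 0.57 SE on recovered fragments). Its value of -0.07 turned to 0.14 without control replicate 3, 0.03 without melatonin replicate 1 and 0.01 without melatonin replicate 4.

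The spread itself was uneven between the groups. The SD of FPKM was larger in control than in melatonin for all 10 members, for example 43.2% of the mean against 19.7% for C1qa and 84.3% against 22.8% for Lyz2. The share of all genes with a larger SD in control was not computed. Control replicate 3 was highest for every member, so the 10 are not independent observations, and a difference in spread was not tested. Without control replicate 3 the 3 remaining control libraries still had an SD of 12.2 FPKM for Lyz2 and 3.49 FPKM for Cd74, against 4.28 and 0.839 FPKM in the 4 melatonin libraries. For H2-Ab1 it was the other way round without that library, at 0.238 FPKM in control against 0.457 FPKM in melatonin.

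**Figure D5:**
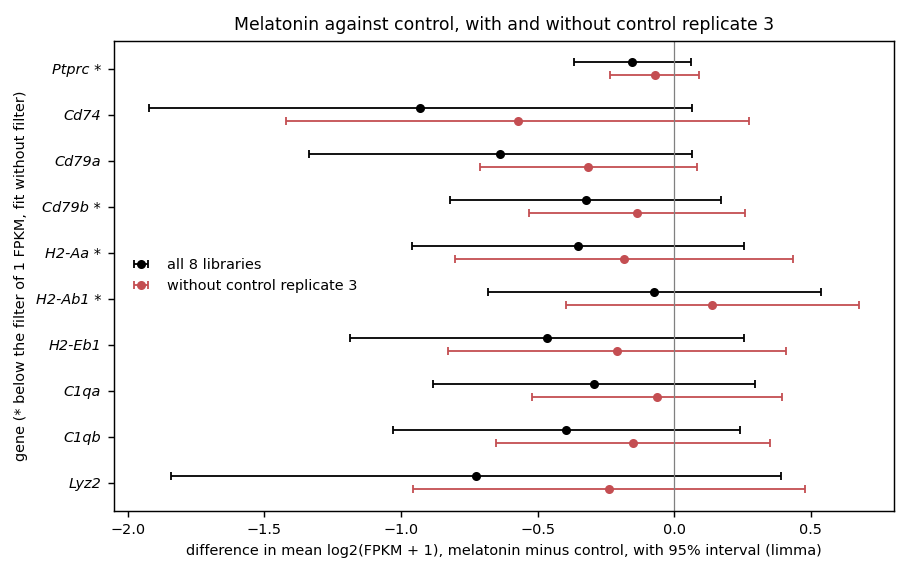
Difference in mean log2(FPKM + 1), melatonin minus control, for the 10 members (horizontal axis), with 95% intervals from limma, over all 8 libraries (black) and without control replicate 3 (red); genes with a star were below 1 FPKM on average and come from the fit without a filter. All 20 intervals include 0, and the red points lie nearer 0 than the black ones except for H2-Ab1, which changes sign from -0.07 to 0.14.

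Lists of related genes gave no call either, with 0 members past the adjusted threshold in each. In the pan-leukocyte list all 8 tested genes had a negative log2 fold change (median -0.43), and in the macrophage list all 12 did (median -0.38). Without control replicate 3 these were 8 of 8 (median -0.15) and 9 of 12 (median -0.12). All 3 tested B cell genes were negative (median -0.85, or -0.52 without that library). Ighm had 3.01 ± 2.35 FPKM in control and 0.944 ± 0.139 with melatonin (SD, n = 4 each, limma adjusted p = 0.274). These 3 averaged under 1 FPKM with melatonin and passed the filter through their control values, which favours a negative sign. The same held for some genes of the other lists, such as Itgb2 (3.04 FPKM in control and 0.817 with melatonin). Without a filter 13 of 15 B cell, 18 of 18 pan-leukocyte and 23 of 24 macrophage genes were negative. Of all genes above 0 FPKM 50.5% were. Among the tested genes of these 3 lists 0 had an unadjusted p under 0.05, where 9.74% of all tested genes were lower and 9.40% higher at that level. Below the filter, Fcgr1, an Fc receptor gene, and Ms4a1, which encodes CD20, had an unadjusted p under 0.05 in the fit over all genes above 0 FPKM (limma adjusted p = 0.290 and 0.397). Fcgr1 was at 0.367 to 0.631 FPKM in control libraries and 0.208 to 0.305 FPKM with melatonin, without overlap. Lists of other cells were mostly negative too: granulosa genes in 7 of 7 (median -0.31, 3 lower at that level), endothelial genes in 5 of 5 (median -0.14, 2 lower), oocyte genes in 7 of 8 (median -0.12) and stroma genes in 6 of 7 (median -0.22). Class II genes were negative in 7 of 10 (median -0.10), with 1 lower and 2 higher at that level. Complement genes were negative in 7 of 11 (median -0.10), with 0 lower and 2 higher, and genes of B cell receptor signalling in 5 of 6 (median -0.16), with 0 in either direction.

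The 10 genes outside the members with the library pattern nearest to the mean pattern of the 6 tested members were found by the mean absolute difference of centred and SD-scaled log2(FPKM + 1) over the 8 libraries. In order of distance these were Itgb2 (0.125), Cybb (0.139), Pf4 (0.161), Tyrobp (0.173), Ifitm1 (0.178), Saa3 (0.188), Laptm5 (0.201), Ppp1r10 (0.209), Keap1 (0.210) and Ighm (0.212). Cybb, the catalytic subunit of the phagocyte oxidase, was at 2.72 FPKM in control replicate 3 and 0.612 to 1.54 FPKM in the others. Saa3, an acute-phase protein gene, was at 30.4 FPKM in control replicate 3 and 8.07 FPKM in control replicate 2, against 1.19 to 3.05 FPKM in the other 6 libraries. Ppp1r10 and Keap1, which encode a nuclear phosphatase subunit and a sensor of oxidative stress, matched in shape and not in size, at 19.8 and 13.2 FPKM in control replicate 3 or 1.25-fold and 1.20-fold the median of the others.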

How the data were processed

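RNA from 8 samples was extracted with Trizol and made into libraries with a NEBNext Ultra kit, per the labels' protocols. The aligner was HISAT2 2.0.5 and the genome mm10, as named in the submitters' processing notes. How reads were counted, with which annotation and whether by strand, is not given in the sources used here. FPKM was deposited by the authors for each gene, per the file headers, so a gene's value depends on what the library's other transcripts take up. mm10 is a C57BL/6 genome and Kunming mice are outbred, so reads of variable genes such as the H2 genes may align unequally between animals, which was not tested. The series table and the 8 sample files differed in 0 cells.

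Fragments were recovered from FPKM with GENCODE M21 exon lengths, matched for 54409 of 55157 genes; 98.7% to 98.9% of values up to 30 fragments were whole within 0.05. For Cd74, H2-Aa, H2-Ab1 and H2-Eb1 these lengths gave no whole numbers, and the shortest length that did in all 8 libraries was used (1184 to 1873 bases). The 14738 genes averaging 1 FPKM or more were tested with limma 3.58.1 (R 4.3.3, intensity trend) on log2(FPKM + 1), group as the only term, Benjamini-Hochberg adjustment and a threshold of 0.05. Members below 1 FPKM were fitted without a filter. Correlations used exact permutation (Python 3.11.15, numpy 2.4.6). The scripts were tested on simulated data.

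The members, lists and motifs were chosen with earlier results of these data known. Genes named beside the members follow a rule: from each list the 2 most abundant tested genes and that with the smallest p, and the 10 of nearest pattern (lists of other cell types are given mainly as sums). Of other names, Spi1, Itgam, Ccr2, Adgre1, Mrc1, Lyve1, Cd68, Cd3e, Cd3d, Jchain, Ly6g, Ciita, Rfx5, Ctss, C1qc, Folr2, Fcgr1, Ms4a1, Fcer1a, B2m, H2-K1, H2-D1, Il34, Xcr1, Flt3 and Batf3 were added after their values were seen. Alternatives were quantile and median-ratio scaling, no filter and a filter of 5 FPKM, a pseudocount of 0.1, array weights, a replicate block, limma-voom on fragments, a threshold of 0.10 and leaving out each library; limma-voom with at least 10 fragments and correlations with group means removed were added after the data were seen.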

Additional observations from a re-analysis of the deposited data

Results flagged for a closer look

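Summed neutrophil genes in melatonin replicate 1 were at 0.969 FPKM, against 2.27 to 2.46 FPKM in the other melatonin libraries, a gap of 0.900 of the group's range on the log2 scale (Dixon's ratio, above its 95% critical value). Summed theca genes in melatonin replicate 4 were at 86.6 FPKM, against 59.7 to 63.7 FPKM, a gap of 0.8295. These were 2 of 56 groups of 4 libraries examined, where chance flags about 5%. None of the 10 members had such a gap in either group.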

How the results depend on the processing

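Of 153 alternative values for the 10 members, 150 kept direction and stayed above the threshold. The 3 others were H2-Ab1 without 1 library, over a range from -0.24 to 0.14 (0.14 without control replicate 3, 0.03 without melatonin replicate 1, 0.01 without melatonin replicate 4; the cause was not tested). Genes past the threshold numbered 0, and 1 without a filter (the microRNA gene Mir6947); leaving out 1 library gave 0 to 1, the 1 being C1rb without control replicate 1, and both genes were named after their values were seen. Pairs of members that passed numbered 36, and 10 to 35 without 1 library, lowest without control replicate 3 (10) and control replicate 2 (23); with group means removed, added after the data were seen, 13 passed. Whether equal replicate numbers pair the samples cannot be told from these values. Same-numbered libraries had correlations of deviations from -0.10 to 0.15, and libraries of different numbers from -0.09 to 0.10. The replicate block gave 0 genes past the threshold, as without it (2776 and 2821 at an unadjusted p under 0.05). Ranges of adjusted p over alternatives were 0.151 to 0.507 for Cd74, 0.290 to 0.744 for Lyz2 and 0.171 to 0.516 for Cd79a. Depth limits Cd79b most, at 1 to 37 fragments per library. Fragments and limma-voom values of Cd74 and the H2 genes rest on implied lengths.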

Other observations

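Clec9a, a gene used to mark a class of dendritic cells, ran opposite to the leukocyte genes. It was at 5.57, 4.32, 3.06 and 5.36 FPKM in control and 8.94, 8.56, 6.58 and 9.94 FPKM in melatonin replicates 1 to 4, without overlap (limma log2 fold change 0.78 ± 0.17 SE, adjusted p = 0.121, not past the threshold). Xcr1 and Flt3, defining genes of the same cells, were at most at 0.0257 and 0.0294 FPKM in any library, and Zbtb46, a factor of classical dendritic cells, at 2.49 to 3.95 FPKM. Clec9a was the exception in its list. Without a filter 9 of the 10 listed dendritic cell genes had a negative log2 fold change, against 50.5% of all genes above 0 FPKM. Among these Batf3, below the filter, had -0.30 (limma unadjusted p = 0.0184, adjusted p = 0.341). Zbtb46, besides Clec9a the only listed one averaging 1 FPKM or more, had -0.02 (limma adjusted p = 0.950). Without control replicate 3, 0 of these 2 tested genes were negative. The summed list, which holds Clec9a, was at 8.20 to 9.65 FPKM in control and 9.94 to 13.8 FPKM in melatonin libraries. Among genes for factors that attract or maintain macrophages, Il34 had 2.98 ± 0.524 FPKM in control against 4.18 ± 0.417 with melatonin, and Mif 314 ± 23.5 against 247 ± 27.4 FPKM (SD, n = 4 each; limma adjusted p = 0.148 and 0.146). The complement gene C1s1, a protease that acts with C1q, had 5.51 ± 2.10 FPKM in control against 8.20 ± 1.62 with melatonin (SD, n = 4 each; limma adjusted p = 0.236).

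MHC class I genes did not follow the class II members in their order of libraries. Of 14 listed genes 3 were highest in control replicate 3, where 18.8% of all tested genes were. In log2 fold change 11 of the 14 were negative (median -0.105), against 52.5% of all tested genes. H2-K1 and H2-D1 were among the 3 positive ones. B2m, the shared light chain, was at 234 to 263 FPKM in control and 219 to 269 FPKM in melatonin libraries. H2-K1 was at 14.1 FPKM in control replicate 3 and 17.9 FPKM in melatonin replicate 1, and at 32.4 to 51.4 FPKM in the other 6 libraries. H2-D1 was at 41.0 and 67.3 FPKM in those same libraries and at 27.0 to 50.6 FPKM in the others. The part of H2 alleles in these values was not tested.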
